A study of Mus musculus with 4 samples.

Results

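10 genes that encode platelet glycoproteins and the proteins of platelet alpha granules were followed in 4 single-cell RNA libraries: Pf4, Ppbp, Itga2b, Itgb3, Gp9, Gp1bb, Gp1ba, Gp6, Vwf, and Thbs1. The rule lists them by name, though with earlier results of these data known, and they were 10 of the 32285 genes counted. The study asked how a PyMT-B6 mammary tumor alters the blood-forming progenitors of marrow and spleen, and the libraries were made from mice with no tumor and from mice bearing one. CBM and CS are the bone marrow and the spleen of control animals, and TBM and TS are the marrow and the spleen of tumor-bearing animals. Mice of all groups were C57BL/6J females of 8 to 16 weeks per the labels and the study's methods, which name no engineered allele for them. Each group was 1 library, and how many mice went into it is not given in the sources used here. Tissues were digested with collagenase and DNase, depleted of lineage-positive cells, and sorted by surface protein into c-Kit+ fractions with or without Sca-1 and into CD45- fractions with or without CD31 and CD51, which were pooled in equal parts. Shares of cells in a library are therefore set in part by this sort, and lineage-positive mature blood cells were meant to be removed by it.

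Platelets are shed by megakaryocytes, which descend from Kit-positive stem and progenitor cells and acquire platelet genes in steps. The integrin αIIbβ3 (Itga2b and Itgb3) binds fibrinogen, the GPIb-IX complex (Gp1ba, Gp1bb, and Gp9) binds von Willebrand factor, and GPVI (Gp6) binds collagen. Alpha granules store the chemokines platelet factor 4 (Pf4) and pro-platelet basic protein (Ppbp), von Willebrand factor (Vwf), and thrombospondin-1 (Thbs1), which are released when a platelet is activated. Itga2b, also called CD41, is known as an early gene of the lineage and is present on a portion of stem cells and on mast cells and basophils. Vwf is also a gene of endothelium, and Thbs1 is made by monocytes and other cells.

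Pf4 and Ppbp lie side by side on mouse chromosome 5 (GRCm38, GENCODE vM21), Ppbp at chr5:90768518-90770063 and Pf4 at chr5:90772435-90773383, both on the plus strand, 2371 bases apart with 0 annotated genes between them. Itga2b (chr11:102453297-102470122, minus strand), Itgb3 (chr11:104608000-104670476, plus strand), and Gp1ba (chr11:70639122-70642036, plus strand) share chromosome 11, and Gp9 (chr6:87778072-87779768, plus strand) and Vwf (chr6:125546774-125686679, plus strand) share chromosome 6. Gp1bb (chr16:18620317-18622403, minus strand) overlaps Sept5 and Gm49601 on its own strand, so its counts are uncertain where reads could be given to either. Itga2b overlaps Gm23563, and Gp6 (chr7:4363965-4397744, minus strand) overlaps Gm25349 and Gm24752, each on its own strand, so the same limit holds for them. Thbs1 lies at chr2:118111876-118127133 on the plus strand and overlaps Gm29233 on the other strand.

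The 250 bases before the start were read for the chemokine neighbors, which differed from each other by cell state, and for Gp6 and Gp1ba, the members with a GATA match. RefSeq promoters of GRCm38.p6 were found for 7 of the 10 genes. Letters in capitals mark matches on either strand. The GATA letters searched were AGATAA and, with another first base, TGATAA. The ETS letters searched were AGGAAG and, with another first base, CGGAAG. The lines are written 5′ to 3′ on the strand of the gene: Pf4 is chr5:90772185-90772434, Ppbp chr5:90768268-90768517, Gp6 chr7:4397745-4397994 on the minus strand, and Gp1ba chr11:70638872-70639121.
Pf4: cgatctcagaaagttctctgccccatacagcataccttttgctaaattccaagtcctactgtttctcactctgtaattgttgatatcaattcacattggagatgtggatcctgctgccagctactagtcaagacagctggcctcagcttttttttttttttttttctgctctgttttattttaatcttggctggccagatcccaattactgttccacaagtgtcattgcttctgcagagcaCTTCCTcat
Ppbp: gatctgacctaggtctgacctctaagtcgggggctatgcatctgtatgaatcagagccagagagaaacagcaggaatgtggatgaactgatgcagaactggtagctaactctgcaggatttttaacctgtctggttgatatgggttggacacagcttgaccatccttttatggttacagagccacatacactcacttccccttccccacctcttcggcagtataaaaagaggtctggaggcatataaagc
Gp6: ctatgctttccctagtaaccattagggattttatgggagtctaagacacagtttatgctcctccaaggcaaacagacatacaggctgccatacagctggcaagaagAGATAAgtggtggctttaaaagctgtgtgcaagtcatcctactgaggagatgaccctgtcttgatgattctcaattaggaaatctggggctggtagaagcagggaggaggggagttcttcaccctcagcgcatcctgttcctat
Gp1ba: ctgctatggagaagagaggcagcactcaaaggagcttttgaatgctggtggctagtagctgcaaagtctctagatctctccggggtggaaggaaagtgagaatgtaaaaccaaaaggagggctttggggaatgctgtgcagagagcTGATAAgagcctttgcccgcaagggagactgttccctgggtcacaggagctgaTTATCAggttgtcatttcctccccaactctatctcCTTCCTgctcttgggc
A GATA match stood in 2 of the 7 members (Gp6 and Gp1ba) and in 16.6% of 32851 mouse promoters of the same length. An ETS match stood in 5 of the 7 and in 39.2% of all promoters, and both kinds stood in Gp1ba and in 5.49% of all. The matches are a description of these letters only.

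Barcodes with at least 1000 genes and at most 10% of UMIs (unique molecules counted) from mitochondrial genes were kept, which left 3497, 4340, 3236, and 5188 barcodes (CBM, TBM, CS, and TS). Their median UMIs were 13738, 14386, 26322.5, and 26808. Between 2 and 9 barcodes were shared by any pair of libraries. Clusters were built without the 10 genes and named from markers, and 25.4%, 25.4%, 53.2%, and 36.2% of the barcodes of CBM, TBM, CS, and TS stayed in clusters without a name. Levels are UMIs of a gene per 1000000 UMIs of a population (CPM), with a 95% Poisson interval that covers counting error only. With 1 library per group there was no replicate and no test, so every difference between libraries is a difference between those libraries. The 3′ counts were not scaled by gene length, so CPM levels are compared within a gene across populations, and values of several genes set side by side (shares of cells, UMIs for 100 of Pf4) do not rank the genes by amount. Where 4 values follow each other without labels they are in the order CBM, TBM, CS, and TS.

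Among classes of at least 20 cells, megakaryocyte-like cells had the highest level of all 10 genes in every library, except Thbs1 in TBM. In smaller classes, 2 neutrophil-like CBM cells held 3 Itgb3 and 7 Thbs1 UMIs, or 173 (35.7 to 506) and 404 CPM (162 to 832), above the megakaryocyte-like values. The level of Pf4 in megakaryocyte-like cells was 4823 (4768 to 4878), 2912 (2879 to 2944), 2488 (2447 to 2529), and 1690 CPM (1652 to 1730) from CBM to TS, and no 2 of these intervals overlapped. Each tumor library was lower than its control, but in spleen the direction turned at a minimum of 350 genes and in the shallow cluster given below. Megakaryocyte-like cells held 93.4% to 95.8% of all Pf4 UMIs of kept barcodes. Ppbp was at 76.2, 36.6, 206, and 310 CPM in CBM, TBM, CS, and TS, with 90.9% to 92.4% of its UMIs in the class. Itga2b was at 423, 594, 342, and 425, and Itgb3 at 113, 208, 94.1, and 151, so that both integrin subunits were highest in TBM. Gp9 (84.5, 70.3, 89.6, and 103), Gp1bb (104, 99.1, 82.1, and 119), and Gp1ba (21.9, 18.9, 20.2, and 18.8) stayed within narrow ranges, and the intervals of Gp1ba overlapped in all 4 libraries. Vwf was at 208, 141, 147, and 91.6 CPM. Gp6 was at 7.15, 1.69, 17.1, and 14.4.

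Outside the megakaryocyte-like cells the 10 genes had different second places, again among classes of at least 20 cells. Itga2b was next highest in mast or basophil-like cells, with 175 (161 to 190), 296 (280 to 312), 110 (97.8 to 123), and 137 CPM (112 to 167). Itgb3 also came second there, at 31.5, 25.3, 32.0, and 14.9. Gp1bb in the same cells was at 2.35, 1.76, 0.703, and 1.36 CPM, from 1 to 8 UMIs. Itga2b in these cells was thus well above 0 while Gp1bb rested on a handful of UMIs.

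Pf4 reached 241 CPM (202 to 286) in the macrophage-like cells of CBM, where 7 of 40 cells held all 131 UMIs, and 76.2 in the monocyte-like cells of TBM, where 25 of 242 cells had a UMI. Vwf was at 19.6 CPM in the dendritic-like cells of CS, and Gp9 at 17.3 in the erythroid-like cells of CBM. No cluster was endothelial-like or stromal-like by the rule used here, so the endothelial level of Vwf could not be read. Megakaryocyte-like cells held 92.1% and 89.3% of the Vwf UMIs in CBM and TBM, and 65.5% and 63.5% in CS and TS.

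Within TBM, Thbs1 was highest in the monocyte-like cells, at 49.9 CPM against 19.5 in megakaryocyte-like cells, and within CS it reached 54.1 in the granulocyte-monocyte progenitor-like cells of CS. The megakaryocyte-like share of its UMIs was 41.5%, 24.7%, 63.1%, and 60.1%.

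**Figure D1:**
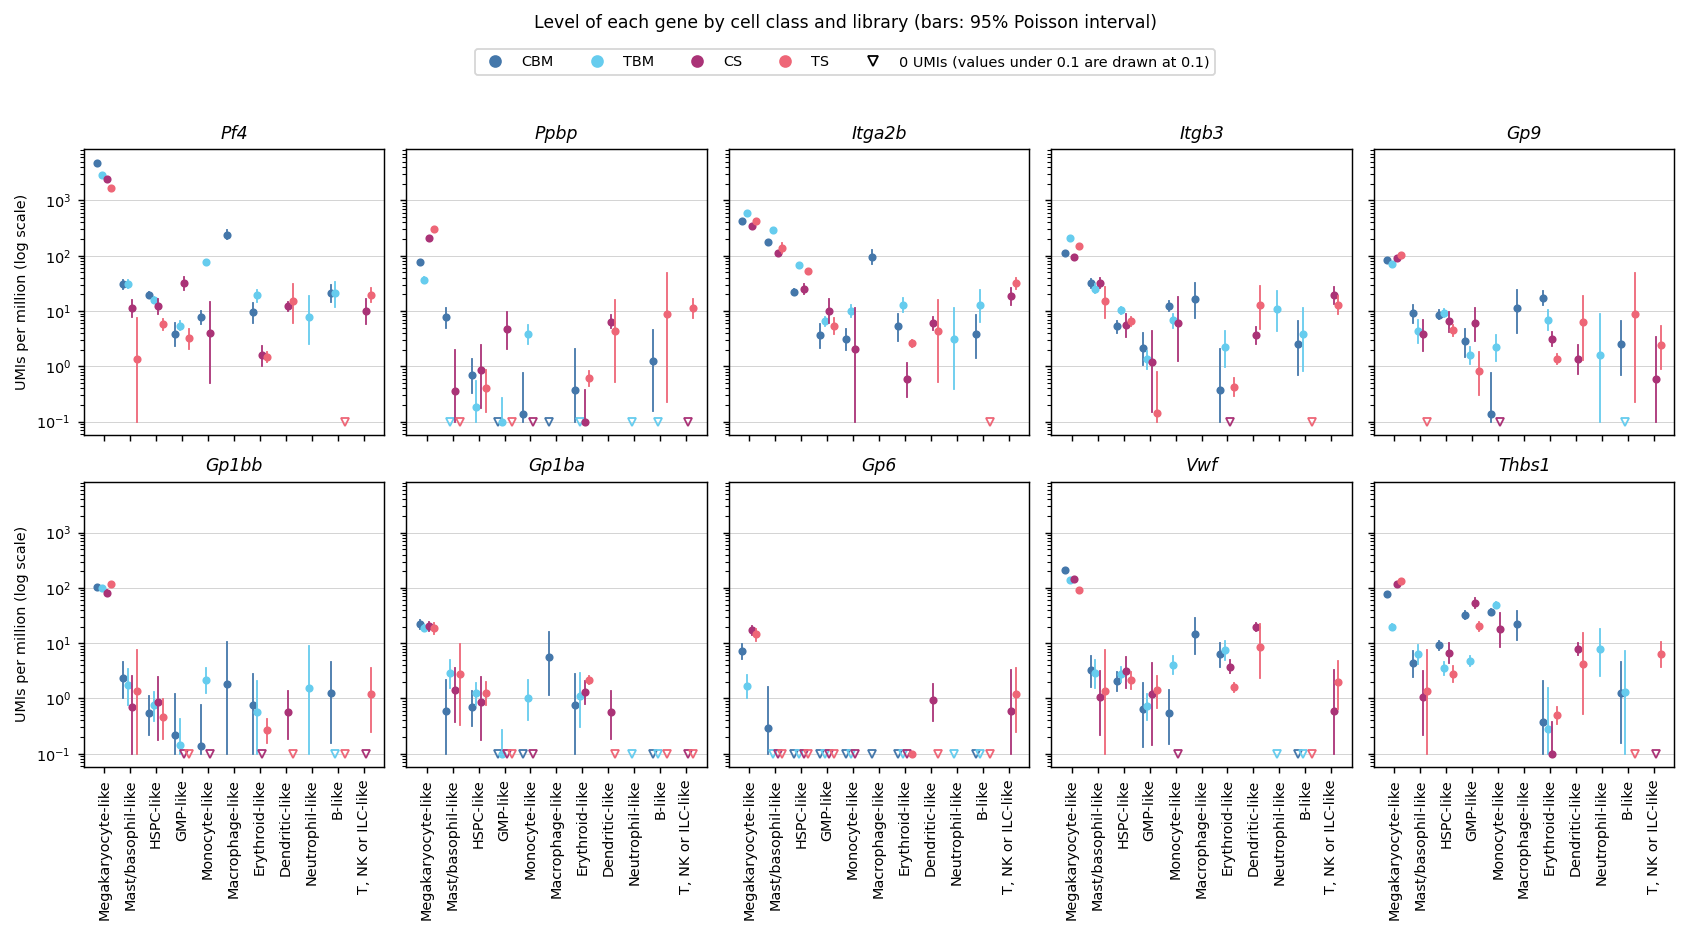
CPM on a log scale (y axis) of each gene in 11 marker-named classes (x axis, classes with at least 20 cells) of CBM, TBM, CS, and TS, with bars for the 95% Poisson interval and open triangles for 0 UMIs. Megakaryocyte-like points stand highest in each panel except for Thbs1, where the monocyte-like cells of TBM were at 49.9 against 19.5.

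The genes whose pattern was most like each member were named by Pearson's r of log2(CPM + 10) over 32 units of class and library, among 8436 genes. Units of 1 library share their depth and free RNA, and the values are a description. Treml1, a receptor of platelet granules, was the gene closest to Gp1bb (r = 0.989), Vwf (0.96), and Gp9 (0.94), and Cavin2 was closest to Pf4 (0.969). Itga2b was closest to F2r (0.93), a thrombin receptor gene, and Itgb3 to F2rl2 (0.92). Thbs1 had the weakest likeness, with Ctdspl at 0.801. Treml1, Clec1b, Rab27b, Gp5, and F2rl2 were among the markers that named the megakaryocyte-like cells.

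The megakaryocyte-like class was made of 2 states that differed in depth and in these genes. 2 deep clusters held 266, 520, 201, and 291 cells of CBM, TBM, CS, and TS, with median UMIs of 19879.5, 17125.5, 26144, and 12517. 1 shallow cluster held 11, 3, 27, and 24 cells, with median UMIs of 5276, 3468, 3469, and 3432. A Kit UMI was found in 82.5% to 96.5% of the deep cells, and in 1 CBM cell and no other cell of the shallow cluster. The markers Tubb1 and Alox12, which encode the tubulin of the platelet microtubule ring and the platelet lipoxygenase, were at 0.165 to 0.89 and 1.5 to 5.7 CPM in the deep clusters. In the shallow cluster they were at 603 to 773 and 2412 to 3261.

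Every member was higher in the shallow than in the deep clusters in each library, and the size of the step differed by gene. The share of all genes that were higher in this contrast was not taken, so no background stands beside this count. Ppbp was at 11.7, 8.18, 21.2, and 18.0 CPM in the deep clusters of CBM, TBM, CS, and TS, and at 5078, 18299, 8765, and 13816 in the shallow cluster. The log2 ratio was 8.76 (8.4 to 9.15), 11.13 (10.78 to 11.49), 8.69 (8.42 to 8.98), and 9.58 (9.25 to 9.94). Ppbp was thus sparse in the deep cells, of which 4.47% to 13.4% had a UMI, whereas 48.1% to 77.4% of them had a UMI of Pf4, its neighbor on the chromosome.

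Thbs1 had a step of the same order as Ppbp. Its level was 18.8, 4.04, 16.0, and 9.72 CPM in the deep clusters and 4618, 9965, 4818, and 5899 in the shallow cluster, a log2 ratio of 7.94, 11.27, 8.23, and 9.25. Gp6 had 10, 8, 18, and 2 UMIs in all deep cells of CBM, TBM, CS, and TS, and 434, 604, 658, and 658 CPM in the shallow cluster. The shallow cluster held 0.155% to 2.12% of the megakaryocyte-like UMIs. It held 71.8% to 86.4% of all Ppbp UMIs of the kept barcodes and 55.6% to 81.1% of those of Gp6.

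Pf4 had the smallest step in CBM and CS, and Itga2b in TBM and TS. Pf4 was at 4782, 2871, 2248, and 1159 CPM in the deep clusters and at 7974, 28747, 13574, and 26262 in the shallow cluster, log2 ratios of 0.74 (0.62 to 0.85), 3.32, 2.59, and 4.5. Itga2b went from 378, 588, 288, and 368 to 3891, 3986, 2861, and 3048, a log2 ratio of 2.76 to 3.36. Vwf differed by 2.65 to 4.27, Gp1bb by 2.84 to 5.07, Itgb3 by 4.26 to 5.0, Gp1ba by 4.71 to 5.5, and Gp9 by 4.72 to 5.83. The median over all genes measured in the same contrast was 0.46, 2.85, -0.01, and 0.17 in CBM, TBM, CS, and TS. A gene with 0 UMIs in the shallow cluster was set there to 3 UMIs, or 38.3, 181, 24.7, and 32.9 CPM. These medians hold such set values, so they give no background for the steps of the members. The TBM median rests on 3 shallow cells, and Itga2b in TBM, at 2.76, lay under it. Together the 10 genes made up 2.84%, 7.39%, 3.67%, and 5.88% of the UMIs of the shallow cluster and 0.565%, 0.399%, 0.289%, and 0.185% of those of the deep clusters.

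The deep cells were uneven in Pf4. In CBM 77.4% of them had a Pf4 UMI, with a median of 1379 CPM per cell and quartiles of 55.8 and 5483. In TS 48.1% had one, the median was 0, and the tenth of cells with the most Pf4 UMIs held 84.4% of them. Itga2b was more even, with a UMI in 90.7% to 97.3% of deep cells and medians of 286, 466, 200, and 249 CPM in CBM, TBM, CS, and TS. Gp1bb was found in 42.3% to 59.0% of deep cells and Gp1ba in 11.3% to 22.9%.

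**Figure D2:**
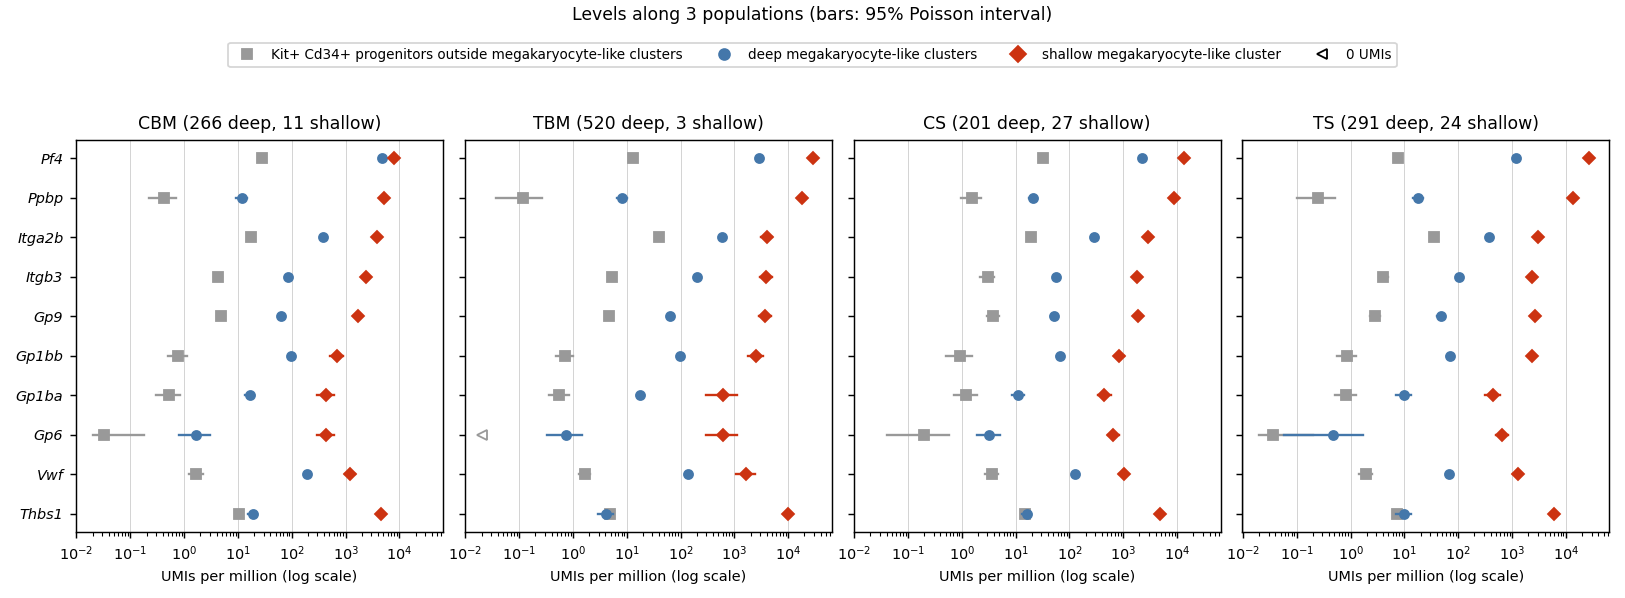
CPM on a log scale (x axis) of each gene (y axis) in Kit+ Cd34+ progenitors outside megakaryocyte-like clusters, in the deep clusters, and in the shallow cluster, 1 panel per library, with bars for the 95% Poisson interval and an open triangle for 0 UMIs. Ppbp and Thbs1 are at or under 21.2 in the deep clusters and at or over 4618 in the shallow cluster, and of these only Thbs1 lies near its progenitor level in the deep clusters.

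Kit- and Cd34-positive progenitors were taken as the barcodes with at least 1 UMI of each gene. They numbered 1478, 1979, 562, and 1312, or 42.3%, 45.6%, 17.4%, and 25.3% of kept barcodes. Exactly 1 UMI of Kit or of Cd34 was found in 29.4%, 35.6%, 35.9%, and 40.3% of them, so the gate depends on depth. Of these progenitors 92, 269, 71, and 122 lay in megakaryocyte-like clusters, which is 6.22%, 13.6%, 12.6%, and 9.3%.

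In all progenitors of the gate, Pf4 was at 333 (327 to 339), 367 (361 to 372), 257 (250 to 265), and 40.0 CPM (37.7 to 42.3). The TS level stood far under the other 3. Itga2b was at 41.0, 108, 48.8, and 50.3, with TBM far above the others. Itgb3 had the same order at its top, with 9.71, 29.8, 9.21, and 7.98. Vwf was at 14.5, 19.8, 16.4, and 5.01 CPM, Gp9 at 9.23, 12.1, 9.04, and 5.05, and Gp1bb at 6.98, 12.4, 6.92, and 3.37. These 3 genes were highest in TBM and lowest in TS.

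The other members were low in the gate. Thbs1 was at 11.9, 4.93, 13.8, and 7.1 CPM in CBM, TBM, CS, and TS, which made it lower in both tumor libraries. Ppbp was at 2.31, 0.978, 2.64, and 0.707, and Gp1ba at 1.89, 2.59, 2.64, and 1.35. Gp6 had 5, 8, 5, and 1 UMIs, under the minimum of 20 UMIs over 2 libraries for a ratio.

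Many of these UMIs came from the few progenitors in megakaryocyte-like clusters, to a degree that differed by gene. These held 92.2%, 96.9%, 89.2%, and 82.4% of the Pf4 UMIs of the gate in CBM, TBM, CS, and TS, 89.7%, 94.9%, 88.1%, and 76.0% of those of Gp1bb, and 89.3%, 92.7%, 80.6%, and 63.8% of those of Vwf. The share was smaller for Itga2b, with 61.1%, 67.7%, 64.9%, and 35.0%, and for Gp9, with 51.3%, 66.3%, 63.0%, and 46.7%. Gp1ba had 74.6%, 81.1%, 60.0%, and 42.5%. Ppbp had 83.1%, 89.6%, 48.9%, and 66.7%, and in CS 28 dendritic-like cells held 33.3% of its UMIs. For Thbs1 it was 18.8%, 12.4%, 6.36%, and 3.79%, under the share of the cells themselves in TBM, CS, and TS. Granulocyte-monocyte progenitor-like clusters held 25.4%, 26.4%, 22.0%, and 42.7% of the Thbs1 UMIs of the gate. HSPC-like clusters held 28.4%, 23.1%, 10.2%, and 19.4% of them, and unnamed clusters 22.4%, 27.7%, 54.7%, and 33.2%.

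**Figure D3:**
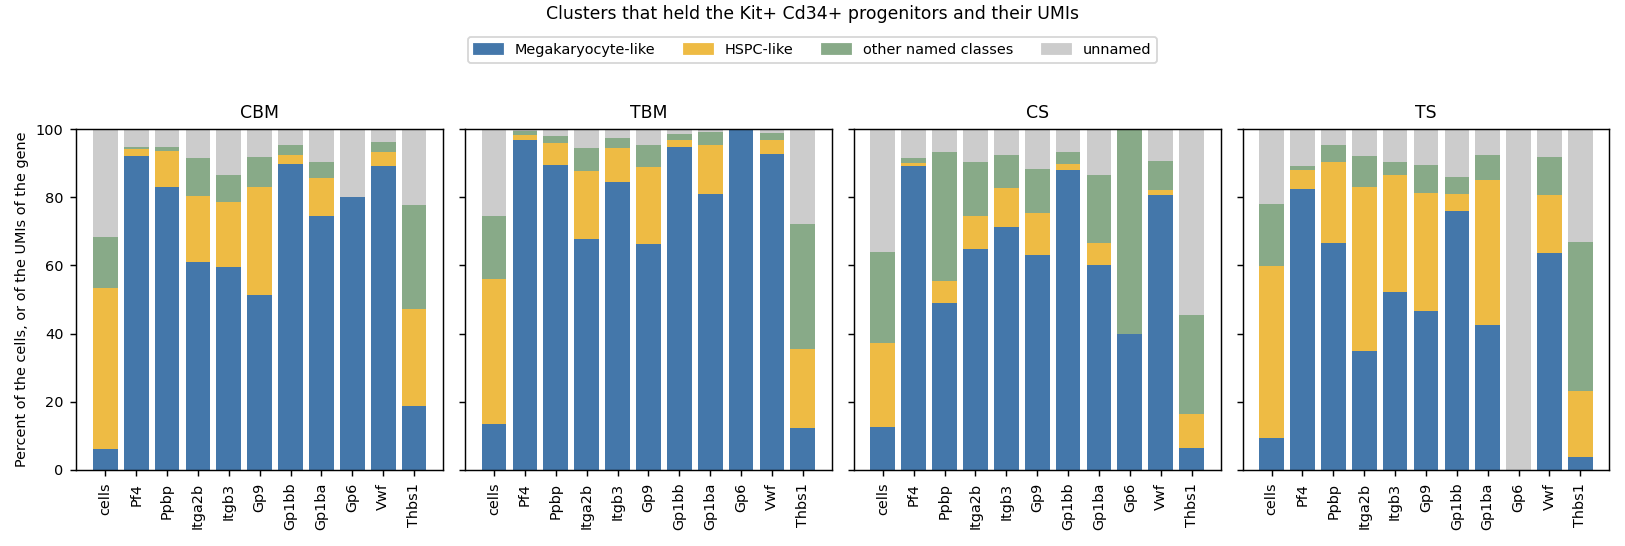
Percent (y axis) of the Kit+ Cd34+ progenitors (first bar) and of the UMIs of each gene in them (other bars) by the cluster that held the cell, 1 panel per library. Megakaryocyte-like clusters held 6.22% to 13.6% of the cells and 82.4% to 96.9% of the Pf4 UMIs, but 3.79% to 18.8% of the Thbs1 UMIs. Gp6 rests on 5, 8, 5, and 1 UMIs.

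Outside the megakaryocyte-like clusters, Pf4 was low in the progenitors beside its free RNA, and Itga2b was less so. Pf4 was at 28.1 (26.3 to 30.0), 13.1 (12.1 to 14.2), 31.8 (29.0 to 34.8), and 7.49 (6.51 to 8.58) in CBM, TBM, CS, and TS. Free RNA, read from barcodes with at most 100 UMIs, held Pf4 at 409, 311, 209, and 110 CPM, so the progenitors were at 6.88%, 4.22%, 15.2%, and 6.79% of the free RNA level. Itga2b was at 17.2 (15.7 to 18.7), 39.7 (37.8 to 41.6), 19.5 (17.4 to 21.9), and 34.8 (32.7 to 37.1). This was 29.2%, 37.0%, 63.0%, and 113% of its free RNA level.

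The ratio to Pf4 in these cells was set beside that in free RNA. There were 14.4, 34.5, 14.8, and 27.9 Itga2b UMIs for 100 of Pf4 in the free RNA of CBM, TBM, CS, and TS. In progenitors outside the megakaryocyte-like clusters there were 61.1, 303, 61.5, and 465. Thbs1 likewise had 6.1, 2.87, 5.94, and 11.3 UMIs for 100 of Pf4 in free RNA and 37.0, 37.6, 46.5, and 97.1 in these progenitors. Itgb3 was also above its free RNA ratio in every library. In these progenitors it had 40.4 in TBM, 9.47 in CS, and 54.1 in TS, against 7.64, 2.92, and 9.3 in free RNA. Gp9 was above its free RNA ratio in CBM, TBM (35.5 against 3.72), and TS (38.3 against 9.05). Vwf was above its own in TBM, CS, and TS (25.8 against 4.27). Members stayed nearer to their free RNA ratio in some libraries, as Vwf in CBM (5.96 in these progenitors and 6.1 in free RNA). Gp1bb (2.95 and 2.45) and Gp9 were near it in CS. Ppbp was under it in CBM (1.49 and 6.1), in TS (3.35 and 21.6), and in CS. The part of free RNA in these values was not tested. Gp1bb (0.773, 0.721, 0.936, and 0.86 CPM), Vwf (1.68, 1.65, 3.61, and 1.94), Gp9 (4.83, 4.65, 3.81, and 2.87), and Itgb3 (4.22, 5.3, 3.01, and 4.05) stood low in the same cells.

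Shares of cells with a UMI were read after each cell was thinned to 2000 UMIs, beside B-like and erythroid-like cells. The erythroid-like cells did not hold little of every member. Gp1ba was at 2.14 CPM (1.8 to 2.51) in those of TS, against 0.824 in the progenitors outside the megakaryocyte-like clusters. Vwf was at 3.78 in those of CS, against 3.61. Only Pf4 and Itga2b are given here. Pf4 was found in 2.46% (1.71 to 3.42) of the CBM progenitors outside the megakaryocyte-like clusters and in 4.51% (2.27 to 7.92) of B-like cells, and in 3.23% and 6.51% of those cells of TBM. In spleen the comparison was with erythroid-like cells, of which 0.391% (0.00989 to 2.16) had a Pf4 UMI in CS and 0.588% (0.282 to 1.08) in TS, against 3.05% (1.72 to 4.99) and 1.18% (0.645 to 1.97) of the progenitors. The comparison cells were shallower than the progenitors in marrow and deeper in spleen, and thinning does not make the part of free RNA equal between them, so no background is read from these shares. As CPM over all counts Pf4 was at 21.0 (14.4 to 29.4) and 20.9 (11.9 to 33.9) in the B-like cells of CBM and TBM, against 28.1 and 13.1 in the progenitors. It was at 1.59 (1.02 to 2.37) and 1.49 (1.21 to 1.81) in the erythroid-like cells of CS and TS, against 31.8 and 7.49. The intervals of Pf4 overlapped in marrow and were apart in spleen. The unthinned shares of the progenitors were 18.5%, 17.4%, 13.4%, and 7.82%, at median depths of 19831.5, 20880, 26552, and 19501 UMIs, and those of the comparison cells 11.3%, 8.82%, 8.56%, and 3.57%, at 4812, 3391, 67042, and 39628.5.

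Itga2b was higher than in the comparison cells in all 4 libraries as CPM over all counts. The B-like cells held it at 3.81 (1.4 to 8.3) in CBM and at 10 UMIs in 170 cells in TBM, with an interval of 6.25 to 24.0. It was at 0.596 (0.273 to 1.13) and 2.59 (2.22 to 3.01) in the erythroid-like cells of CS and TS, against 17.2, 39.7, 19.5, and 34.8 in the progenitors. After thinning it was found in 4.27% (3.26 to 5.47), 10.4% (8.98 to 11.9), 5.09% (3.32 to 7.42), and 9.16% (7.58 to 10.9) of the progenitors outside the megakaryocyte-like clusters of CBM, TBM, CS, and TS. It was found in 0.41% (0.0104 to 2.26) and 3.55% (1.31 to 7.57) of the B-like cells of CBM and TBM, and in 0.47% (0.203 to 0.924) of the erythroid-like cells of TS. After thinning 0 of the 256 erythroid-like CS cells had one, which allows up to 1.43% at 2000 UMIs. Without thinning the progenitors had 22.2%, 43.6%, 29.7%, and 42.0%. Unthinned shares were 2.42%, 5.88%, 3.5%, and 7.61% in the comparison cells. In HSPC-like progenitors, the stem and progenitor clusters, the thinned share was 4.45% (3.04 to 6.25), 14.6% (12.3 to 17.2), 1.44% (0.175 to 5.1), and 11.5% (9.14 to 14.1), higher in each tumor library than in its control. The CS value rests on 2 of 139 cells, and without thinning the shares were 25.7%, 55.6%, 34.5%, and 53.1%.

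**Figure D4:**
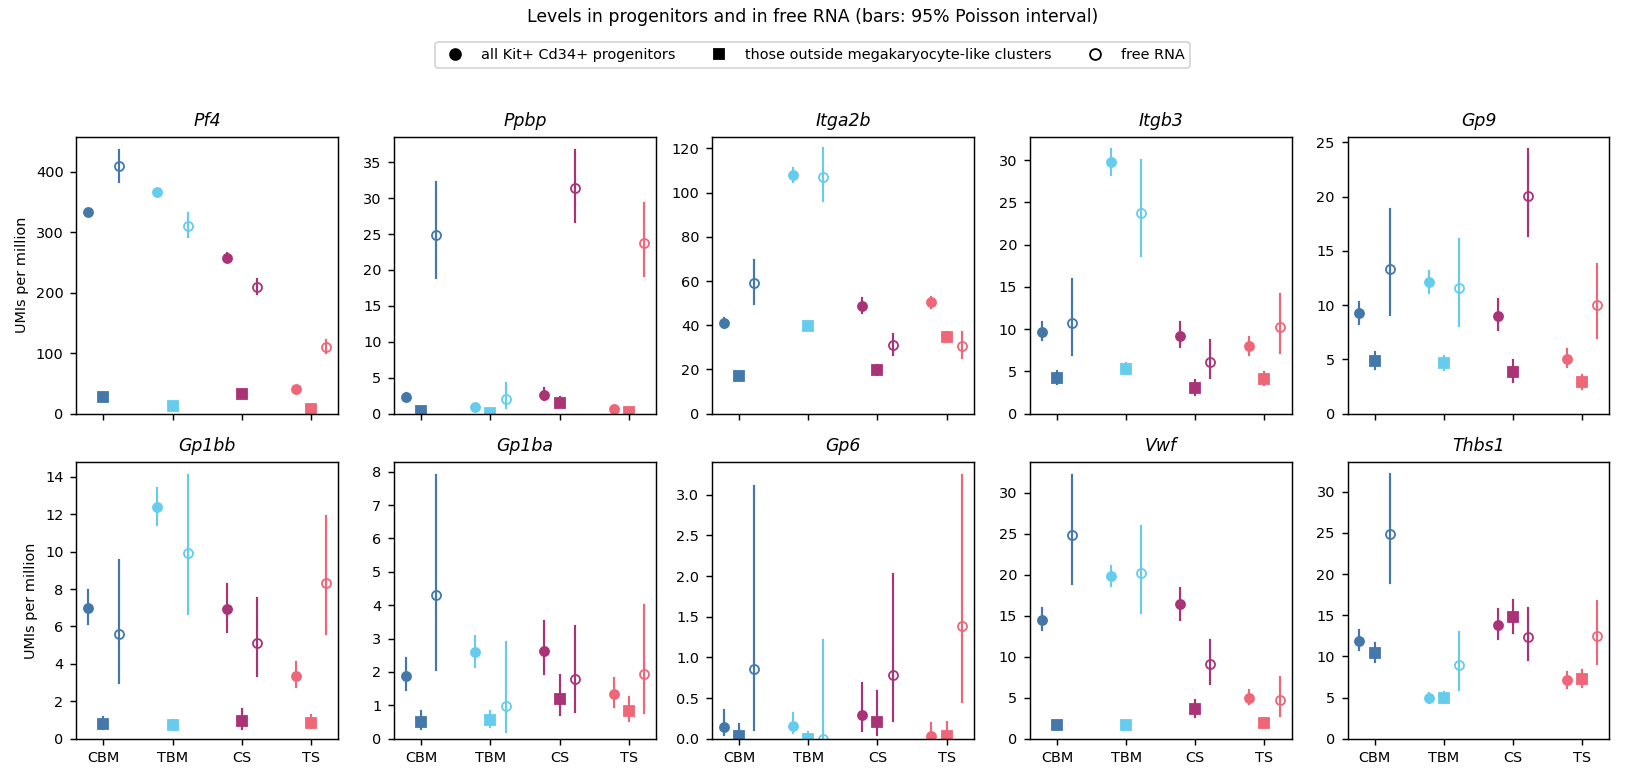
CPM (y axis, linear, own scale per gene) in all Kit+ Cd34+ progenitors, in those outside megakaryocyte-like clusters, and in free RNA of CBM, TBM, CS, and TS (x axis), with bars for the 95% Poisson interval. Pf4 outside the megakaryocyte-like clusters was at 7.49 to 31.8, under the free RNA level of 110 to 409, while Itga2b in TS was at 34.8 and its free RNA at 30.8.

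The spleens of tumor-bearing and control animals were compared as TS over CS. In the progenitors the median log2 ratio of the 9 members with enough UMIs was -0.97 (-1.44 to -0.64), against -0.08 over all 13273 genes measured. The interval beside a median runs from the median lower limit to the median upper limit of its members. It covers counting error and not the spread between members, which was -2.69 to 0.04 here. Medians under other settings cover only the members still measured there, so they are not like for like. Within HSPC-like clusters the median was 0.14 over 7 members, without Ppbp (-1.29) and Gp1bb (-0.71), which had too few UMIs. Without barcodes holding a megakaryocyte marker UMI it was 0.26, with Ppbp, Gp1bb, and Gp1ba left out for few UMIs. It was -0.22 when the gate was set after thinning to 2000 UMIs. In the unthinned gate 4 of the 9 were at least 2-fold lower and none was 2-fold higher, where 6.4% of all genes were that much lower and 1.41% that much higher. Pf4 had a log2 ratio of -2.69 (-2.78 to -2.59), or -0.22 (-1.43 to 1.07) in the thinned gate, Ppbp -1.9 (-2.72 to -1.12), Vwf -1.71 (-2.0 to -1.41), and Gp1bb -1.04 (-1.44 to -0.64). The integrin subunits did not share this, with 0.04 (-0.08 to 0.17) for Itga2b and -0.21 (-0.5 to 0.09) for Itgb3. Gp1ba (-0.97), Thbs1 (-0.96), and Gp9 (-0.84) lay between.

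The megakaryocyte-like share of the progenitors was 12.6% in CS and 9.3% in TS, and its part in this ratio was not tested. Without the megakaryocyte-like clusters the median was -0.55, with 3 of 9 members at least 2-fold lower beside 6.61% of all genes. Pf4 was still lower, at -2.08 (-2.33 to -1.85), or -1.27 (-1.86 to -0.66) within HSPC-like clusters, with 370 of its 475 UMIs in CS and 127 of 209 in TS in unnamed clusters, and so was Thbs1, at -1.02 (-1.3 to -0.74). Itga2b was now higher, at 0.84 (0.64 to 1.03), and within HSPC-like clusters it was at 1.12 (0.79 to 1.47), with 1 of 7 members 2-fold higher and 2 lower there beside 2.61% and 5.33% of genes. Gp1bb was at -0.12 (-1.13 to 0.94). Within the progenitors that lay in megakaryocyte-like clusters, Pf4 was at 540 CPM in TS and 1871 in CS, a log2 ratio of -1.79 (-1.9 to -1.69), and Vwf at 52.4 and 108, a log2 ratio of -1.04 (-1.4 to -0.69). Pf4 in free RNA was also lower in TS than in CS, at 110 and 209, and subtracting 10% of free RNA gave -3.03. Leaving out barcodes with any UMI of a megakaryocyte marker brought Pf4 to -0.32 (-0.87 to 0.25), from 78 UMIs in TS and 44 in CS. This kept 888 of 1312 TS progenitors and 290 of 562 CS progenitors, whose median UMIs before the filter were 18656.5 and 26942.5. The filter depends on depth, so the 2 sets are not like for like.

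In marrow the same contrast, TBM over CBM, had another order. The median of the 9 members in progenitors was 0.44 (0.19 to 0.61, the medians of the members' limits), against -0.02 over 14016 genes. The members ran from -1.27 to 1.62. The median was higher still, over the members still measured, when the gate was set after thinning to 2000 UMIs. 2 members were at least 2-fold higher and 2 at least 2-fold lower, beside 2.42% and 3.22% of all genes. Itgb3 (1.62, 1.44 to 1.79) and Itga2b (1.39, 1.31 to 1.48) were the higher ones. Thbs1 (-1.27, -1.51 to -1.04) and Ppbp (-1.24, -1.79 to -0.7) were the lower ones. Ppbp rested on 48 UMIs in TBM and 77 in CBM, and its free RNA level was 1.98 in TBM and 24.9 in CBM. Subtracting 10% of free RNA removed all Ppbp UMIs of CBM, where a count of 0 was set to 3 UMIs. The ratio of 3.12 after subtraction was set by that floor and gives no direction, so the direction of Ppbp is not settled. Gp1bb was at 0.83, Gp1ba at 0.45, Vwf at 0.44, Gp9 at 0.39, and Pf4 at 0.14 (0.11 to 0.17).

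Megakaryocyte-like cells made up 6.22% of the CBM and 13.6% of the TBM progenitors, and without them most of the higher values were gone. The median was then -0.04, with 1 of 8 members 2-fold higher and 2 lower beside 2.09% and 3.91% of all genes. Itga2b stayed higher, at 1.21 (1.07 to 1.35), and at 1.65 (1.45 to 1.85) within HSPC-like clusters, where 2 of 7 members were 2-fold higher and 1 lower beside 2.4% and 2.75% of genes. Itgb3 was at 0.33 (0.01 to 0.65), Gp1bb at -0.1 (-0.92 to 0.73), Vwf at -0.02 (-0.56 to 0.52), Thbs1 at -1.08 (-1.33 to -0.82), and Pf4 at -1.1 (-1.25 to -0.94). Itga2b outside the megakaryocyte-like clusters was thus higher, and Thbs1 lower, in the tumor library of both tissues. Itga2b was also higher in TBM than in CBM in mast or basophil-like (296 and 175 CPM), monocyte-like (10.1 and 3.15), and erythroid-like cells (12.9 and 5.26). Free RNA held it at 107 in TBM and 58.9 in CBM. In spleen it was higher in TS in erythroid-like cells (2.59 and 0.596) and lower in granulocyte-monocyte progenitor-like cells (5.44 and 10.2), with free RNA at 30.8 and 31.0. The part of these shifts in the progenitor values was not tested. The lower Pf4 in marrow depended on which cells were left out, with -0.3 (-0.56 to -0.03) in HSPC-like clusters and 0.2 (-0.12 to 0.53) without barcodes holding a marker UMI. Unnamed clusters held 597 of the 872 Pf4 UMIs of these CBM progenitors.

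In megakaryocyte-like cells as a whole the median log2 ratio was 0.2 (0.02 to 0.37) for TS over CS, with 0 of 10 members past 2-fold in either direction beside 2.47% of genes higher and 1.87% lower. For TBM over CBM it was -0.41 (-0.6 to -0.28), with 0 members higher and 3 lower (Ppbp, Gp6, and Thbs1) beside 2.87% and 1.75% of genes. The share of shallow cells weighs on these values, since it was 27 of 228 cells in CS, 24 of 315 in TS, 11 of 277 in CBM, and 3 of 523 in TBM. The median over the deep clusters alone was -0.21 in spleen and -0.01 in marrow, and in the deep clusters 0 members were 2-fold higher and 1 (Gp6) lower in spleen, beside 2.32% and 1.94% of genes, and 1 higher (Itgb3) and 1 lower (Thbs1) in marrow, beside 2.92% and 1.35%.

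In the pooled deep clusters the integrin subunits were higher, and the granule genes Pf4, Vwf, and Thbs1 lower, in the tumor library of both tissues, although Itga2b in spleen was higher in 1 of the 2 clusters only. The share of all genes that shifted alike in both tissues was not taken, so no background stands beside these directions. Itgb3 was at 56.8 CPM in CS and 103 in TS, a log2 ratio of 0.86 (0.65 to 1.08), and at 84.3 in CBM and 202 in TBM, a log2 ratio of 1.26 (1.12 to 1.4). Itga2b had log2 ratios of 0.35 (0.25 to 0.46) and 0.64 (0.57 to 0.71). The GPIb-IX subunits had intervals that held 0 in both tissues, with 0.1 and -0.01 for Gp1bb, -0.11 and 0.02 for Gp9, and -0.18 and 0.11 for Gp1ba. The clusters taken one by one differed for Gp1ba, with 0.53 (-0.33 to 1.37) and -0.89 (from -1.84 to just under 0) in spleen and 0.69 (0.11 to 1.3) and -0.32 (-0.79 to 0.16) in marrow.

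Pf4 in the deep clusters had log2 ratios of -0.96 (-1.0 to -0.91) in spleen and -0.74 (-0.76 to -0.71) in marrow. Vwf had -0.95 (-1.16 to -0.75) and -0.49 (-0.6 to -0.38), and Thbs1 had -0.72 (-1.29 to -0.17) and -2.22 (-2.76 to -1.7). These 3 granule genes were lower in both tissues, and Ppbp had -0.23 (-0.67 to 0.19) and -0.52 (-0.98 to -0.04). In the 2 deep clusters taken one by one, Pf4 was at -0.35 and -1.72 in spleen and at -0.56 and -0.89 in marrow, Vwf at -0.59 and -1.24 and at -0.32 and -0.62, and Itgb3 at 1.13 and 0.66 and at 1.29 and 1.24. The direction of these 3 held in each cluster, and the size in spleen did not. Itga2b was at 0.66 (0.51 to 0.81) and 0.1 (-0.04 to 0.24) in spleen and at 0.69 and 0.6 in marrow, and in spleen progenitors of the megakaryocyte-like clusters it was at 0.16 (-0.02 to 0.34). Itgb3 in those spleen progenitors was at 0.35 (-0.03 to 0.73), so its interval also held 0 there.

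The 9 megakaryocyte markers summed to 737, 567, 519, and 400 CPM in the deep clusters, so they were lower in the tumor library of each tissue along with Pf4 and Vwf. The deep cells of TS were also shallower than those of CS, with a median of 12517 against 26144 UMIs, while TBM and CBM were closer, at 17125.5 and 19879.5. The part of marker level and of depth in the granule values was not tested. Itgb3 and Itga2b went the other way from the markers.

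In the shallow cluster Pf4 had the opposite sign. It was at 13574 CPM (12927 to 14245) in CS and 26262 (25220 to 27335) in TS, a log2 ratio of 0.95 (0.86 to 1.04). Gp1bb was at 847 in CS and 2358 in TS, a log2 ratio of 1.48 (1.13 to 1.83). Ppbp was at 0.66 (0.54 to 0.78), Gp9 at 0.53 (0.26 to 0.79), Itgb3 at 0.38 (0.1 to 0.65), and Thbs1 at 0.29 (0.12 to 0.46). The intervals of Itga2b, Gp1ba, Gp6, and Vwf held 0. The share of all genes with an interval above 0 was not taken for this cluster. These ratios compare 24 cells with 27, and in marrow the shallow cluster had only 3 TBM cells, with Pf4 at 1.85 (1.68 to 2.02).

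Barcodes of at least 350 but under 1000 genes, which the gene minimum had left out, were read as well. Those with at least 3 of the 9 megakaryocyte markers numbered 64, 7, 109, and 135 in CBM, TBM, CS, and TS, and share no cell with the clusters. They come from the same libraries and were picked by megakaryocyte markers, so they are no independent check of the shallow cluster. Pf4 in them was at 12111, 12356, 13645, and 27202 CPM, Ppbp at 8091, 3089, 10809, and 14916, and Gp1bb at 1105, 1404, 1041, and 2625. TS over CS was 1.0 (0.93 to 1.06) for Pf4, 1.33 (1.1 to 1.58) for Gp1bb, 0.72 (0.51 to 0.93) for Itgb3, and 0.46 (0.38 to 0.55) for Ppbp. Pf4, Ppbp, Itgb3, Gp9, Gp1bb, Vwf, and Thbs1 had intervals above 0, and Itga2b, Gp1ba, and Gp6 intervals that held 0. The share of all genes with an interval above 0 was not taken for these barcodes. In marrow, with 7 TBM barcodes, Pf4 was at 0.03 (-0.24 to 0.29), Ppbp at -1.39 (-1.94 to -0.89), and Thbs1 at -1.24 (-2.01 to -0.56), so the higher marrow values of the shallow cluster were not seen for these 3 genes. Gp1bb was at 0.35 (-0.54 to 1.13), beside 1.85 (1.22 to 2.46) in the shallow cluster, and Itgb3 at 0.46 (-0.17 to 1.04), beside 0.7 (0.27 to 1.12). Gp9 was at 1.04 (0.58 to 1.47), beside 1.13 (0.67 to 1.58) in the shallow cluster, and Itga2b at 0.6 (0.25 to 0.94), beside 0.03 (-0.37 to 0.42).

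**Figure D5:**
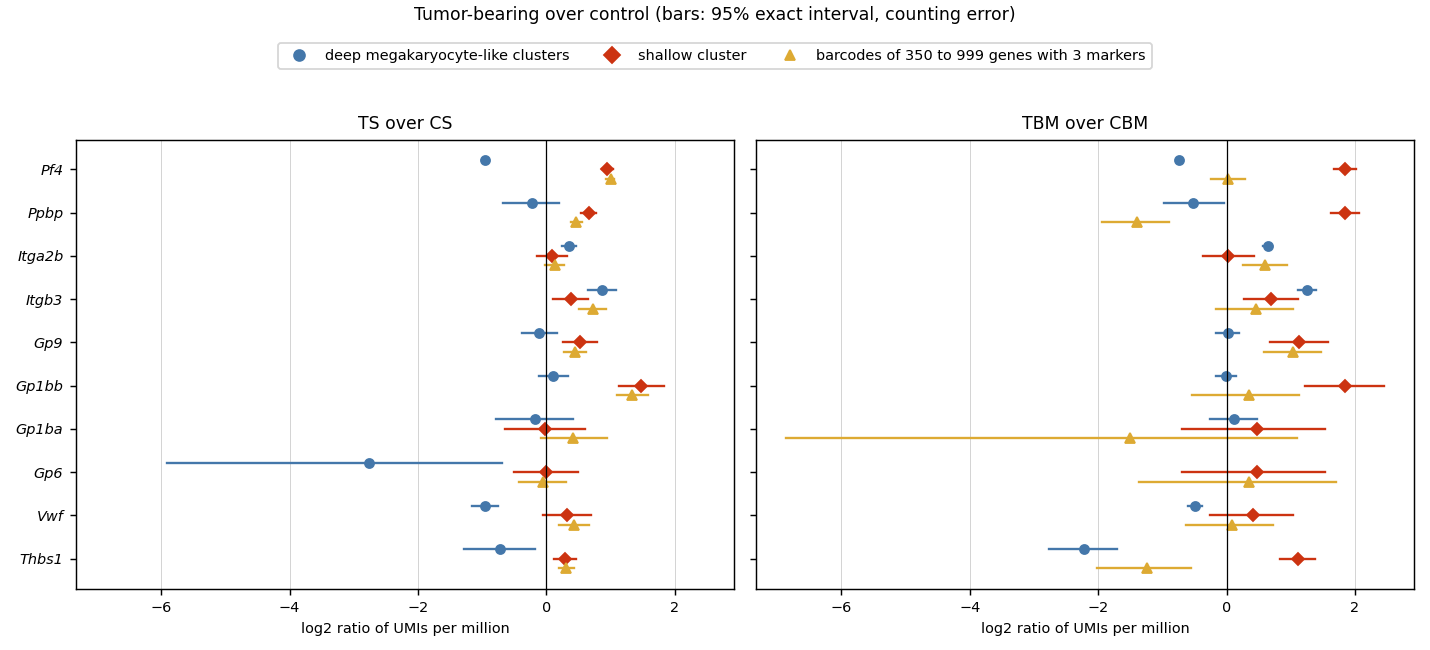
log2 ratio of CPM (x axis) of TS over CS and TBM over CBM for each gene (y axis) in the deep megakaryocyte-like clusters, the shallow cluster, and barcodes of at least 350 but under 1000 genes with at least 3 megakaryocyte markers, for genes with at least 20 UMIs, with bars for the 95% exact interval of counting error. In spleen Pf4 was at -0.96 in the deep clusters and at 0.95 and 1.0 in the other groups, and the marrow values of these groups rest on 3 and 7 TBM barcodes.

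Between tissues, CS over CBM in progenitors had a median log2 ratio of 0.17 (-0.32 to 0.38), with 0 of 9 members past 2-fold in either direction beside 4.8% of genes higher and 2.43% lower. Over the members still measured it turned to -1.0 in the thinned gate and to -0.44 within HSPC-like clusters. TS over TBM had -1.26 (-1.53 to -1.01), with 6 of 9 members at least 2-fold lower and 0 higher beside 4.37% and 2.83% of genes. Within HSPC-like clusters 0 of 6 members of CS over CBM were past 2-fold, beside 2.11% of genes higher and 3.15% lower, and 0 of 7 members of TS over TBM were higher and 2 lower, beside 1.74% and 5.06%. Without the megakaryocyte-like clusters 3 of 9 members were higher and 0 lower in CS over CBM, beside 5.15% and 2.46%. The median of TS over TBM was then 0.02, and 0.48 without barcodes holding a marker UMI. Without the clusters 0 of 8 members were past 2-fold in either direction, beside 4.01% of genes lower and 3.34% higher. In megakaryocyte-like cells the medians were -0.19 (-0.41 to 0.07) for CS over CBM and 0.13 (-0.14 to 0.39) for the tumor-bearing pair. 2 members were higher and 0 lower in the first, beside 1.73% and 1.7% of genes, and 3 higher and 0 lower in the second, beside 2.39% and 2.52%. Without the shallow cluster the medians were -0.47 and -0.68, so the second changed sign. Then 0 were higher and 1 lower in the first, beside 1.7% and 1.72%, and 2 higher and 2 lower in the second, beside 1.63% and 2.8%. These comparisons share their libraries with the tumor comparisons.

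A companion list of 41 other platelet genes was read in the same contrasts: receptors, granule cargo and granule formation, integrin activation and cytoskeleton, and transcription factors. In the progenitors its median was -0.26 for TS over CS, with 0 of 39 measured genes at least 2-fold higher and 6 lower, beside 1.41% and 6.4% of all genes. The lowest was Cd36 (-2.89), a scavenger receptor, and the highest Selp (0.93), the P-selectin of alpha granules. For TBM over CBM the median was 0.06, with 3 of 40 higher and 1 lower, beside 2.42% and 3.22%. Clu, the granule protein clusterin, was highest at 1.97, and Pdgfa, a growth factor, lowest at -1.02. In megakaryocyte-like cells the medians were -0.03, with 1 higher and 3 lower of 39 beside 2.47% and 1.87%, and -0.2, with 0 higher and 4 lower of 39 beside 2.87% and 1.75%.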

How the data were processed

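Single-cell RNA of the 4 sorted and pooled samples was prepared with 10x Genomics 3′ v3.1 chemistry. The deposited values are UMI counts per gene and barcode, made by the authors with Cell Ranger 4.0 on mm10, unfiltered and not normalized. The authors' later removal of ambient RNA, gene minimum of 350, and normalization are not in these counts. The total per library was 101811035 (CBM), 135207987 (TBM), 145301019 (CS), and 176094297 (TS) UMIs, of which 59122731, 85030111, 104314280, and 139854825 were in kept barcodes.

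Here barcodes were kept at 1000 genes or more and 10% or fewer mitochondrial UMIs. Clusters were built with scanpy 1.11.5, scikit-learn 1.9.0, and igraph 0.11.9 under Python 3.11.15 (3000 variable genes without the 10 members, 50 components, 20 neighbors, resolution 1.2), which gave 36 clusters, 24 of them named. A name needed at least 3 markers, each 2-fold over the other cells and in at least 10% of the cells of the cluster, 1 of them among the top 10 genes by fold. 1 cluster of TBM barcodes was left unnamed for low depth, a decision made after seeing the data. No doublet caller was run, and the 5% of barcodes with the most UMIs were left out in an alternative. Levels are summed counts per 1000000 UMIs (CPM) with Poisson intervals. Ratios have exact conditional binomial intervals for genes with at least 20 UMIs over 2 libraries, and a count of 0 was set to 3. The interval of a median over members runs from the median of their lower limits to the median of their upper limits. Scripts were tested on simulated data. Groups were taken from the sample titles. Named genes are the 10 members, the companion list with its extremes, and the genes most like each member by correlation. The members and lists were chosen with earlier results of these data known. B-like cells, planned as the comparison for shares, numbered 3 in CS and 28 in TS, so erythroid-like cells were used there, a choice made after seeing the counts. The split of the megakaryocyte-like class into deep and shallow clusters, the reading of progenitors without megakaryocyte-like clusters or within HSPC-like clusters, and the barcodes of at least 350 but under 1000 genes with 3 markers were also added after seeing the data.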

Additional observations from a re-analysis of the deposited data

Results flagged for a closer look

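5 members had log2 ratios of opposite sign in the spleen and the marrow progenitors, each with an interval that did not hold 0. They were 5 of 9 members measured, and 3.34% of all 13093 genes measured in both tissues did the same. Pf4 was at -2.69 for TS over CS and 0.14 for TBM over CBM, Vwf at -1.71 and 0.44, Gp1bb at -1.04 and 0.83, Gp1ba at -0.97 and 0.45, and Gp9 at -0.84 and 0.39. The differences between tissues were not tested, since each group was 1 library. Without the megakaryocyte-like clusters Pf4 was at -2.08 in spleen and -1.1 in marrow, and without barcodes holding a marker UMI at -0.32 (-0.87 to 0.25) and 0.2 (-0.12 to 0.53). Without those clusters the values of Vwf, Gp1bb, Gp9, and Gp1ba in marrow had intervals that held 0.

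3 members differed in the same way between the tissues in megakaryocyte-like cells, and these differences were not tested either. They were 3 of 10 members, beside 1.27% of 10905 genes. Thbs1 was at 0.19 in spleen and -1.99 in marrow, Ppbp at 0.59 and -1.06, and Gp9 at 0.2 and -0.27. These 3 genes were at 4.72 or more on the log2 scale above the deep clusters in the shallow cluster, of which TBM had 3 cells.

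Barcodes of at least 350 but under 1000 genes, outside the main populations, held all 10 members at higher levels in TS than in CS, with intervals that did not overlap, as did 6.89% of 9365 genes. Pf4 was at 4603 CPM in TS and 985 in CS, Ppbp at 2508 and 699, Thbs1 at 1071 and 333, and Itga2b at 645 and 242. Gp9 was at 591 and 166, Gp1bb at 444 and 69.1, Itgb3 at 443 and 104, and Vwf at 308 and 88.1. Gp6 was at 104 and 41.3, and Gp1ba at 68.3 and 19.6. Of these barcodes 8.59% had at least 3 megakaryocyte markers in TS and 2.75% in CS, and they held 98.2% and 87.9% of the Pf4 UMIs.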

How the results depend on the processing

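No paired analysis was possible because each group was 1 library. Of the medians under another setting, 65 stayed within their interval, 29 moved beyond it, and 10 changed sign. That interval is made of the medians of the members' limits and narrows with counts, so the tally does not measure how stable the medians are. Of single members, 323 stayed, 119 moved, and 31 with an interval that did not hold 0 changed sign, 0 of them under either other scaling. The cause of a change was not tested beyond the cells a setting leaves out. Each median covers the members with enough UMIs in that setting, so the sets of members differ. In sequence TS over CS, TBM over CBM, CS over CBM, and TS over TBM, where only changed values are given, the progenitor medians were as follows. Thinning the gate to 2000 UMIs gave -0.22, 1.07, -1.0, and -1.92, and HSPC-like clusters only (added after seeing the data) 0.14, 0.62, -0.44, and -0.49. Without megakaryocyte-like clusters (also added) they were -0.55, -0.04, and, for TS over TBM, 0.02, and without mast or basophil-like clusters as well -0.53, -0.08, and, for TS over TBM, 0.2. Without barcodes with a marker UMI TS over CS was 0.26 and TS over TBM 0.48. TS over CS was -0.55 as a mean over cells. TBM over CBM was 0.77 with 10% free RNA subtracted, with Ppbp at its floor in CBM, and 0.77 without the deepest 5% of barcodes. CS over CBM was 0.46 without those barcodes. TS over TBM was -1.97 after subtraction and -1.57 with no minimum of UMIs.

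In megakaryocyte-like cells the medians were -0.22, -0.01, -0.49, and -0.67 at a minimum of 2000 genes, -0.3, -0.83, 0.87, and 1.43 as a mean over cells, and -0.21, -0.01, -0.47, and -0.68 without the shallow cluster (added after seeing the data). A minimum of 350 genes gave 0.96 for TS over CS, 0.14 between the control libraries (CS over CBM), and 1.48 for TS over TBM, and a gate on 3 markers 0.59 and, for TS over TBM, 0.49.

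Of members whose interval did not hold 0 at the start, some changed sign in progenitors. After subtraction this was Ppbp in marrow (3.12, set by the floor of 3 UMIs in CBM). Within HSPC-like clusters those that changed sign were Gp1ba (0.47) and Vwf (0.61) in spleen and Pf4 (-0.3) in marrow. Without marker UMIs they were Gp9 (0.21) and Vwf (0.32) in spleen and Itgb3 (-0.14) in marrow. Without megakaryocyte-like clusters they were Pf4 (-1.1), Gp9 (-0.06), Gp1bb (-0.1), and Vwf (-0.02) in marrow, and without mast or basophil-like clusters as well Pf4 (-1.37), Gp9 (-0.01), Gp1bb (-0.24), Gp1ba (-0.01), and Vwf (-0.16).

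By the same limit, in megakaryocyte-like cells of spleen they were Ppbp (-0.09), Itga2b (-0.09), Gp9 (-0.31), and Thbs1 (-0.5) as a mean over cells, Ppbp (-0.02), Gp9 (-0.07), and Thbs1 (-0.52) at 2000 genes, Pf4 (0.54) and Vwf (0.38) at 350 genes, and Ppbp (-0.23), Gp9 (-0.11), and Thbs1 (-0.72) without the shallow cluster. In marrow they were Ppbp (0.72) and Gp9 (0.09) at 2000 genes and Gp9 (0.02) without the shallow cluster. Intervals cover counting error only, and 1 library per group leaves the spread between mice unknown.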

Other observations

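Of the companion genes, Myl9, Fermt3, Clu, Runx1, Zfpm1, and Nfe2 were chosen for their values, and their levels are given as a description. The median of all genes in the contrast of shallow and deep clusters was 2.85 on the log2 scale in TBM, where the shallow cluster had 3 cells, and -0.01 to 0.46 in the other libraries. Genes with 0 UMIs in the shallow cluster were set to 3 UMIs there, so these medians give no background. Myl9, a myosin light chain, was at 0 CPM in the deep clusters of CBM and TBM, 1.96 in CS, and 3.32 in TS, and at 1072, 3805, 1242, and 2259 in the shallow cluster of CBM, TBM, CS, and TS. Fermt3, the kindlin that activates integrins, was already at 433 to 495 in the deep clusters and at 2235 to 2928 in the shallow cluster. Clu was at 17.1 to 25.7 and at 1027 to 1634.

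The transcription factor Runx1 was at 284 to 295 CPM in the deep clusters and at 38.3, 65.8, and 132 in the shallow cluster of CBM, CS, and TS, with 0 UMIs in the 3 TBM cells. Zfpm1, the partner of GATA1, was at 304 to 393 in the deep clusters and 32.9 to 181 in the shallow cluster. In the shallow cluster Runx1 had 3, 0, 8, and 12 UMIs and Zfpm1 11, 3, 6, and 3 (CBM, TBM, CS, and TS). In TBM 3 UMIs were 181 CPM, so these shallow levels are uncertain. Nfe2, a factor of platelet release, was at 101 to 127 and at 423 to 800. Of the 8 transcription factors of the list, 3, 4, 3, and 3 were at least 2-fold higher in the shallow cluster (CBM, TBM, CS, and TS). At least 2-fold lower there were 2, 3, 2, and 2.

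Clu also stood out in progenitors outside the megakaryocyte-like clusters, at 2.9, 14.7, 3.54, and 8.17 CPM in CBM, TBM, CS, and TS, with a log2 ratio of 2.35 in marrow and 1.21 in spleen, the highest of the companion list in both. Clu and Itga2b were thus higher in these progenitors in both tumor libraries. Itga2b was also higher in the erythroid-like cells of both. Of the measured companion genes, 1 of 38 was at least 2-fold higher in marrow and 2 of 39 in spleen in these cells, beside 2.09% and 1.39% of all genes. At least 2-fold lower were 0 of 38 in marrow and 6 of 39 in spleen, beside 3.91% and 6.61% of all genes.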
